A study of Mus musculus with 6 samples.

Results

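The genes described here are the matrix metalloproteinases (Mmp genes), the ADAMTS proteases and the tissue inhibitors of metalloproteinases (Timp genes), in RNA from isolated mouse pancreatic islets. They were chosen by symbol from the deposited table of 24421 genes. The symbols matched 46 genes, comprising 23 Mmp, 19 Adamts and 4 Timp genes. Of these, 15 reached at least 1 CPM (the count scaled to the library total) in 3 or more of the 6 libraries, namely 8 Mmp, 5 Adamts and 2 Timp genes. The libraries were 3 with the genotype label C57.DhpsloxP.MIP1-CreERT, a knockout of Dhps aimed at β cells, and 3 labelled control, all on the C57BL/6J strain background. In that line a Cre recombinase of the inducible CreERT type is driven from an insulin promoter and acts on a loxP-flanked Dhps gene, which encodes the enzyme that starts the hypusine modification of eIF5A. The labels did not say whether the controls carried Cre or the loxP allele, gave no age or treatment, did not spell out the prefix HF of the sample names, and did not say that replicates came from separate animals. The p-values therefore measure the spread between these samples, which may be technical.

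Matrix metalloproteinases are zinc-dependent enzymes that cut collagens, elastin and other proteins of the extracellular matrix. Some are secreted as inactive precursors, and the membrane-type members are anchored at the cell surface. The ADAMTS enzymes are secreted relatives that carry thrombospondin motifs and cut proteoglycans such as aggrecan and versican, process procollagens, or cut von Willebrand factor. TIMPs are small secreted proteins that bind the active site of these enzymes. In the pancreas, fibroblast-like stellate cells, endothelial cells and macrophages are known sources of these proteins, and the islet is surrounded by a matrix that they can remodel.

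Promoter sequences are shown for 3 of the genes that rose (Mmp14, Timp2 and Adamts2) and, for contrast, for Mmp13, whose promoter is known for its AP-1 site. Each run is the 250 bases before the RefSeq gene start in build GRCm38.p6, on the gene's own strand, and capitals mark motif matches on either strand. The motifs searched were the GC box with the letters GGGCGG, the AP-1 site with the letters TGANTCA, and the core promoter box with the letters TATAAA, and no 2 matches overlapped. They lie at chr14:54431348-54431597 on the plus strand for Mmp14, chr11:118355412-118355661 on the minus strand for Timp2, chr11:50601835-50602084 on the plus strand for Adamts2 and chr9:7272264-7272513 on the plus strand for Mmp13.
Mmp14: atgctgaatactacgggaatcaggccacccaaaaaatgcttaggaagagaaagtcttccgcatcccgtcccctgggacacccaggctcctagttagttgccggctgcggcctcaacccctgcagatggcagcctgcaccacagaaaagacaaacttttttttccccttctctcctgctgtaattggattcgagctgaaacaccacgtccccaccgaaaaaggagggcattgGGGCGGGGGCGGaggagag
Timp2: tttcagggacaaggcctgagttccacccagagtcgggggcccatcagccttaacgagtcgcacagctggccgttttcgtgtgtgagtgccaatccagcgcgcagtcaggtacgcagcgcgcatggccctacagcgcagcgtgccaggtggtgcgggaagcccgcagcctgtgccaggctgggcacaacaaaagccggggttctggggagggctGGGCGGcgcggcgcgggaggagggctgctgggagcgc
Adamts2: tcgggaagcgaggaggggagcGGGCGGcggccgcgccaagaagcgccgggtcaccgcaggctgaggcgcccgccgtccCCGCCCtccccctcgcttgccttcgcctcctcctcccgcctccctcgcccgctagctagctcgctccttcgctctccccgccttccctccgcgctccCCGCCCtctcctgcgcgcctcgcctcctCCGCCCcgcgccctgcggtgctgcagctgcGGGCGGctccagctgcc
Mmp13: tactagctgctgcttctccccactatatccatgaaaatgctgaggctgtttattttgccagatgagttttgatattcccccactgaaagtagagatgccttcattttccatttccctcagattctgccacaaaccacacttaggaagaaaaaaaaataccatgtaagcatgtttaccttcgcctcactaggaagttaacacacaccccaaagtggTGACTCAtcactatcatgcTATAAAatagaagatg
The Adamts2 run held 5 GC boxes, the Mmp14 run 2 that follow each other directly, and the Timp2 run 1, and none of these 3 held an AP-1 site or a core promoter box. The Mmp13 run held 1 AP-1 site and 1 core promoter box and no GC box. Of the 15 genes, 11 had a sequence in the promoter table, which held none for Mmp2, Adamts4, Mmp16 or Mmp17. Among these 11, 8 held a GC box, against 32.7% of 32851 promoters. Only 3 of these 8 were genes that rose (Mmp14, Timp2 and Adamts2). The GC box was also present for Adamts1, Adamts18, Mmp15, Mmp24 and Timp3, which were not called. AP-1 sites were found for 2 of the 11, Mmp12 and Mmp13, against 6.75% of promoters. The core promoter box was found for Adamts1 and Mmp13, against 12.4% of promoters. A match describes the letters of these windows and does not show binding.

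Library totals ran from 21027737 to 23249895 counts over genes. Dhps itself did not separate the labels: it had 11.7, 12.7 and 11.4 CPM in the knockout-labelled libraries, against 12, 13.4 and 12.3 CPM in the controls (log2 fold change −0.07 ± 0.12 SE, adjusted p = 0.742 in edgeR's quasi-likelihood test, exact two-sided permutation p = 0.4, with 0.1 as the smallest p possible). Its exons overlap those of Wdr83, and its count sums all exons in all islet cells. Directions below therefore refer to libraries labelled knockout. Values per gene are CPM with TMM-scaled library sizes, log2 fold changes are knockout-labelled minus control, and values with ± in parentheses are log2 fold changes with their SE unless SD or CPM is named, and a gene is called where its Benjamini-Hochberg adjusted p over 13736 tested genes is under 0.05. Over all tested genes 6.76% were called, 4.14% higher and 2.63% lower in the knockout-labelled libraries.

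Among the 15 genes, 5 were called higher (Mmp2, Mmp14, Adamts4, Adamts2 and Timp2), 0 were called lower and 10 were not called. At an unadjusted p under 0.05 there were 7 of the 15, against 26.5% of all tested genes, and DESeq2 called 6 of the 15, against 12.4% of all tested genes. Their median log2 fold change was 0.35, against 0.01 over all tested genes. The CPM of the groups did not overlap for 9 of the 15, with 8 higher and Mmp16 lower in the knockout-labelled libraries, while 32.1% of all tested genes had groups that did not overlap, 16.9% higher and 15.2% lower. For 10 of the 15 all 6 libraries were at 1 CPM, and 4 of these 10 were called higher. For the other 5, 1 group alone had 3 libraries at the minimum, the knockout-labelled one for Mmp2, Mmp17 and Adamts18 and the control for Mmp13 and Mmp16. The choice of these 5, the called Mmp2 among them, was therefore not independent of the difference between the groups, and the counts and the median over the 15 are a description only. The count of 5 was 1 without knockout-labelled replicate 1, 2 without control 2 and 2 without control 3. The share of all tested genes called was also lower in these settings, at 0.459% without knockout-labelled replicate 1, 0.708% without control 2 and 1.54% without control 3.

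**Figure D1:**
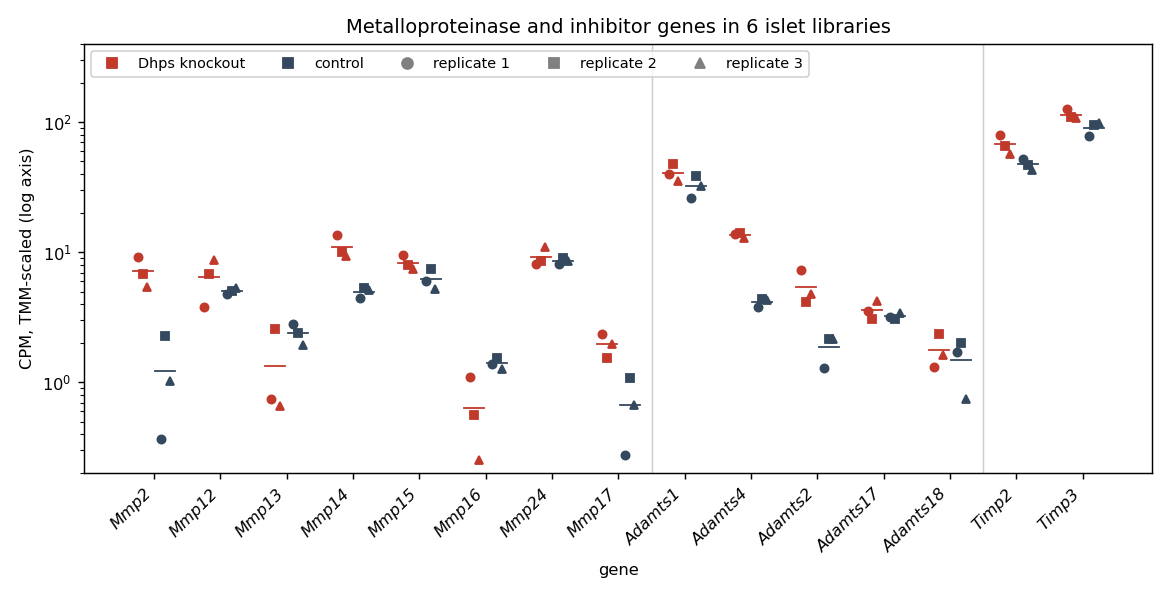
CPM on a log axis for the 15 genes in each library, with knockout-labelled libraries in red left of the controls in dark blue, marker shapes for replicates and bars for group means. Timp3 and Timp2 were the highest in every library, and the 3 knockout-labelled values of Mmp2, Mmp14, Adamts4, Adamts2 and Timp2 lie above all 3 control values.

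Mmp2, gelatinase A, which cuts denatured collagen and basement membrane collagen IV, had the largest difference of the 15. Its CPM was 9.24, 6.86 and 5.43 in the knockout-labelled libraries, against 0.370, 2.29 and 1.03 in the controls. These values came from 210, 146 and 107 counts in the knockout-labelled libraries and 8, 55 and 26 counts in the controls. All knockout-labelled libraries were above all controls, and control 1 was far below the other controls. The log2 fold change was 2.53 ± 0.48 (SE, 95% interval 1.47 to 3.59, adjusted p = 0.0221). It was not called without knockout-labelled replicate 1 (2.30, adjusted p = 0.0791) or without control 3 (2.39, adjusted p = 0.0710), and without control 2 it was 3.31. In build mm10, which the submitters' notes name, Mmp2 occupies chromosome 8 from 92827328 to 92853420, and its 13 exons overlap no other listed gene.

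Among the other secreted Mmp genes, Mmp12 and Mmp13 were not called. Mmp12, the elastase of macrophages, had 3.83, 6.81 and 8.73 CPM in the knockout-labelled libraries, against 4.81, 5.08 and 5.30 CPM in the controls (0.35 ± 0.27, adjusted p = 0.454). The controls lay inside the range of the knockout-labelled libraries. Mmp13, the main interstitial collagenase of mice, had 0.748, 2.58 and 0.660 CPM in the knockout-labelled libraries, against 2.82, 2.42 and 1.94 CPM in the controls (−0.84 ± 0.50, adjusted p = 0.320). Knockout-labelled replicate 2 alone lay among the controls, and without it Mmp13 was called lower (−1.76, adjusted p = 0.0443). Both genes belong to a cluster of 10 Mmp genes on chromosome 9 that spans 427 kb, from 7272514 to 7699416. The other 8 of the cluster did not reach the CPM minimum, and Mmp1a, Mmp1b, Mmp20 and Mmp27 had no count in any library, which allows up to 3 counts or 0.129 to 0.143 CPM per library.

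Of 6 membrane-type enzymes, 5 reached the minimum, namely Mmp14, Mmp15, Mmp16 and Mmp24, which span the membrane, and Mmp17, which is held by a lipid anchor. Mmp25, the other lipid-anchored one, did not exceed 0.486 CPM of the library total in any library and was not tested. Mmp14, or MT1-MMP, cuts fibrillar collagen at the cell surface and activates the precursor of MMP2. It had 13.6, 10.1 and 9.39 CPM in the knockout-labelled libraries, against 4.44, 5.33 and 5.14 CPM in the controls. The controls lay within a narrow range that the knockout-labelled libraries exceeded throughout (1.15 ± 0.19, 95% interval 0.73 to 1.56, adjusted p = 0.0150). Without knockout-labelled replicate 1 the log2 fold change was 0.96 (adjusted p = 0.0522) and without control 2 it was 1.19 (adjusted p = 0.0572), neither of which passed. Mmp14 lies on chromosome 14 from 54431604 to 54441258 with 10 exons.

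The other 4 membrane-type genes at the minimum were not called. Mmp17 had 2.37, 1.55 and 1.98 CPM in the knockout-labelled libraries, against 0.278, 1.08 and 0.672 CPM in the controls (1.52 ± 0.47, adjusted p = 0.0772, or 0.0292 in DESeq2). Mmp16, or MT3-MMP, had 1.10, 0.564 and 0.254 CPM in the knockout-labelled libraries, against 1.39, 1.54 and 1.27 CPM in the controls (−1.11 ± 0.50, 95% interval −2.21 to 0.00, adjusted p = 0.189). Without knockout-labelled replicate 1 Mmp16 was at −1.75 (adjusted p = 0.117) and without knockout-labelled replicate 3 at −0.74 (adjusted p = 0.397). Mmp16 and Mmp17 thus had groups that did not overlap, on opposite sides. Mmp15 averaged 8.32 ± 1.05 CPM in the knockout-labelled libraries and 6.24 ± 1.16 CPM in the controls (SD, n = 3 each, log2 fold change 0.42, edgeR adjusted p = 0.189). Its groups did not overlap either, with the knockout-labelled libraries higher, but they nearly touched. Single values were 9.5, 7.94 and 7.51 CPM in the knockout-labelled libraries, against 6.01, 7.5 and 5.22 CPM in the controls. Mmp24 averaged 9.26 ± 1.49 CPM in the knockout-labelled libraries and 8.62 ± 0.425 CPM in the controls (0.10 ± 0.16, 95% interval −0.25 to 0.45, edgeR adjusted p = 0.725). Exons of Mmp24 overlap BC029722, which had a mean of 402 counts, so its level is uncertain. The ratio of Mmp16 to Mmp14 counts per kb was 0.0458, 0.0318 and 0.0153 in the knockout-labelled libraries, against 0.177, 0.164 and 0.140 in the controls, a ratio chosen after the values were seen.

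Adamts4, an aggrecanase that cuts aggrecan and versican, had the smallest p of the 15. Its CPM was 13.9, 14 and 12.8 in the knockout-labelled libraries, against 3.79, 4.41 and 4.31 in the controls. Both groups were tight and lay far apart, with a log2 fold change of 1.70 ± 0.15 (95% interval 1.37 to 2.02, adjusted p = 0.00543). It was called under every one of 14 alternative settings, with adjusted p between 4.16e-15 and 0.0265. Adamts4 lies on chromosome 1 from 171250422 to 171259922 with 9 exons. Adamts1, a protease of the same substrate class, was the most abundant protease of the 15 and was not called. It had 39.8, 48.2 and 35.3 CPM in the knockout-labelled libraries, against 26.4, 38.9 and 32.1 CPM in the controls (0.34 ± 0.16, adjusted p = 0.206), and the groups overlapped. The ratio of Adamts4 to Adamts1 counts per kb was 0.463, 0.386 and 0.484 in the knockout-labelled libraries, against 0.191, 0.151 and 0.178 in the controls, and was likewise chosen after the values were seen.

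Adamts2, which removes the amino-terminal propeptide of fibrillar procollagens, had 7.30, 4.13 and 4.77 CPM in the knockout-labelled libraries, against 1.30, 2.17 and 2.17 CPM in the controls. The groups did not overlap and knockout-labelled replicate 1 was the highest (1.52 ± 0.31, 95% interval 0.83 to 2.21, adjusted p = 0.0278). The call was lost without knockout-labelled replicate 1 (1.24, adjusted p = 0.0930), knockout-labelled replicate 3 (1.60, 0.0520), control 2 (1.62, 0.0825) or control 3 (1.62, 0.0652). The gene lies on chromosome 11 from 50602085 to 50807573 with 22 exons. Adamts17 and Adamts18, whose substrates are less well defined, were not called. Adamts17 averaged 3.63 ± 0.608 CPM in the knockout-labelled libraries and 3.24 ± 0.183 CPM in the controls (SD, n = 3 each, log2 fold change 0.16, 95% interval −0.36 to 0.68). Adamts18 averaged 1.76 ± 0.529 CPM in the knockout-labelled libraries and 1.49 ± 0.654 CPM in the controls (SD, n = 3 each, log2 fold change 0.25, 95% interval −0.71 to 1.20).

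The inhibitors Timp2 and Timp3 were the most abundant of the 15. Timp2, which inhibits most MMPs and also links the MMP2 precursor to MMP14 at the cell surface, had 80.5, 66.1 and 57.5 CPM in the knockout-labelled libraries, against 52.5, 47.0 and 43.2 CPM in the controls. The groups did not overlap, but the lowest knockout-labelled library was close to the highest control. The log2 fold change was 0.52 ± 0.13 (95% interval 0.22 to 0.81) with an adjusted p of 0.0488, just under the threshold. It missed the threshold with RLE size factors (0.0503), with acinar and hormone genes left out of the scaling (0.0508) and in limma-voom (0.0507). It also missed it without knockout-labelled replicate 1 (0.38, adjusted p = 0.142), knockout-labelled replicate 2 (0.53, 0.0806), control 2 (0.49, 0.154) or control 3 (0.44, 0.155). Timp2 lies on chromosome 11 from 118301061 to 118355411 with 5 exons. Timp3, which binds to the matrix and inhibits ADAMTS4 as well as MMPs, had 126, 109 and 107 CPM in the knockout-labelled libraries, against 79.0, 95.5 and 98.2 CPM in the controls (0.33 ± 0.11, 95% interval 0.08 to 0.59, adjusted p = 0.102). Its groups did not overlap, yet it was not called. Timp3 lies on chromosome 10 from 86300412 to 86349505, inside the span of Syn3 on the opposite strand, and shares no exon with it.

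**Figure D2:**
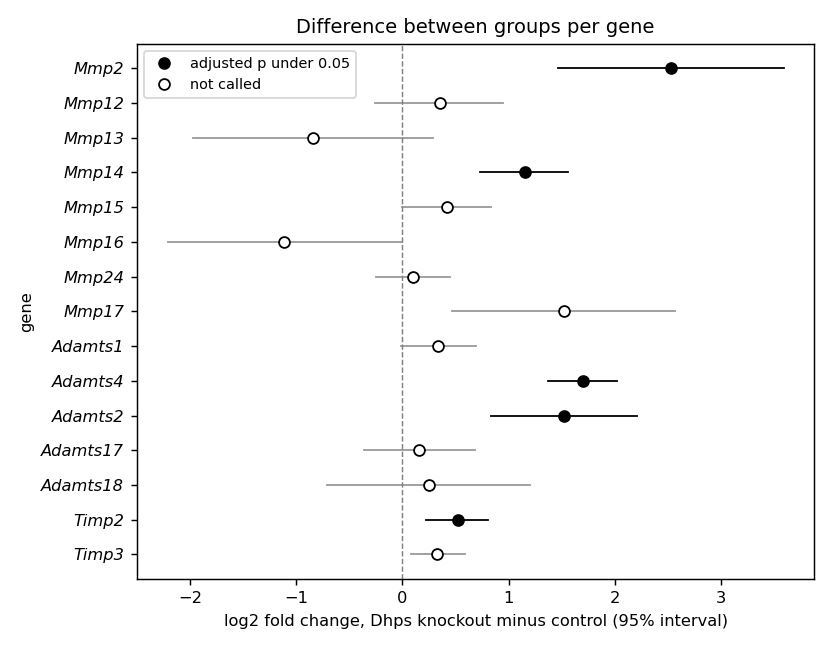
Log2 fold change (knockout-labelled minus control) with its 95% interval for the 15 genes, filled where the adjusted p is under 0.05. The filled points are Mmp2 at 2.53, Adamts4 at 1.70, Adamts2 at 1.52, Mmp14 at 1.15 and Timp2 at 0.52, while the points below 0 are the uncalled Mmp16 and Mmp13.

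The remaining 31 genes stayed under the minimum. Just inside it was Mmp16, whose third-highest library had 1.30 CPM of the library total, and just outside were Adamts9 (0.913), Timp1 (0.913) and Mmp23 (0.845). The highest CPM in any library was 1.71 for Adamts8, 1.63 for Adamts9, 1.38 for Mmp9, 1.37 for Mmp23, 1.37 for Adamts7, 1.24 for Timp1, 1.19 for Adamts15 and 1.05 for Adamts10. It was 0.971 for Adamts5, 0.824 for Mmp11, 0.571 for Adamts6, 0.563 for Mmp3, 0.486 for Mmp19 and 0.486 for Mmp25. Lower still were Adamts16, Adamts14, Mmp7, Adamts12, Timp4, Adamts13, Mmp28, Adamts20, Mmp10, Mmp8, Mmp21, Adamts19 and Adamts3, beside the 4 Mmp genes with no count. Of the 31, 9 passed the expression filter of the fit, none of these 9 was called by edgeR, and 4 had an unadjusted p under 0.05, against 26.5% of all tested genes.

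Per kb of gene model, which allows genes to be compared, Timp3 and Timp2 stood above all other genes of the 46 in both groups. The other inhibitors were far lower, with Timp1 at 1.25 CPM per kb in the knockout-labelled libraries and 0.552 in the controls, and Timp4 at 0.0469 CPM per kb in the knockout-labelled libraries and 0.119 in the controls. Timp3 was at 24.4 ± 2.20 CPM per kb in the knockout-labelled libraries and 19.4 ± 2.23 in the controls, while Timp2 was at 18.8 ± 3.21 CPM per kb in the knockout-labelled libraries and 13.1 ± 1.28 in the controls (SD, n = 3 each). Adamts1 followed at 8.41 ± 1.35 CPM per kb in the knockout-labelled libraries and 6.65 ± 1.28 in the controls. The next of the 15 genes in the knockout-labelled libraries were Mmp14 at 4.25 ± 0.879 CPM per kb, Adamts4 at 3.69 ± 0.171, Mmp2 at 2.36 ± 0.632, Mmp24 at 2.15 ± 0.347, Mmp15 at 1.94 ± 0.245 and Mmp12 at 1.79 ± 0.685 (SD, n = 3), and neighbours in this part of the order lay within their spreads except that Adamts4 stood above Mmp2. In the controls the order of the 15 after Adamts1 was Mmp24 at 2.0 ± 0.0988 CPM per kb, Mmp14 at 1.91 ± 0.180, Mmp15 at 1.46 ± 0.270, Mmp12 at 1.40 ± 0.0676, Adamts4 at 1.14 ± 0.0905 and Mmp13 at 0.894 ± 0.166 (SD, n = 3), with Mmp2 lower at 0.404 ± 0.321. Mmp24 and Mmp14 did not differ beyond their spread in the controls, nor did Mmp15 and Mmp12.

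Summed per kb over all 46 genes, each of the 3 families was higher in all 3 knockout-labelled libraries than in all 3 controls. The 23 Mmp genes summed to 16.6, 15.6 and 14.5 CPM per kb in the knockout-labelled libraries, against 8.99, 10.5 and 9.31 in the controls. The 19 Adamts genes summed to 14.9, 16.7 and 13.2 CPM per kb in the knockout-labelled libraries, against 8.01, 11 and 9.18 in the controls. The 4 Timp genes summed to 50.6, 42.6 and 40.4 CPM per kb in the knockout-labelled libraries, against 31.7, 34.0 and 34.0 in the controls, and Timp2 and Timp3 made up 96.1% or more of this sum in every library. The ratio of Timp to summed protease level was 1.60, 1.32 and 1.46 in the knockout-labelled libraries, against 1.86, 1.59 and 1.84 in the controls, and the groups overlapped at knockout-labelled replicate 1 and control 2.

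Ratios within a library do not depend on its scaling. Mmp2 counts per kb relative to Timp2 were 0.137, 0.124 and 0.113 in the knockout-labelled libraries, against 0.00840, 0.0580 and 0.0283 in the controls. Mmp14 relative to Timp2 was at 0.236, 0.212 and 0.228 in the knockout-labelled libraries, against 0.118, 0.158 and 0.166 in the controls. Adamts4 relative to Timp3 was at 0.140, 0.163 and 0.152 in the knockout-labelled libraries, against 0.0612, 0.0589 and 0.0559 in the controls. The groups did not overlap in these 3 ratios, which were chosen after the values were seen and carry no test. Timp2 relative to Timp3 was at 0.824, 0.781 and 0.691 in the knockout-labelled libraries, against 0.859, 0.636 and 0.569 in the controls, and overlapped.

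**Figure D3:**
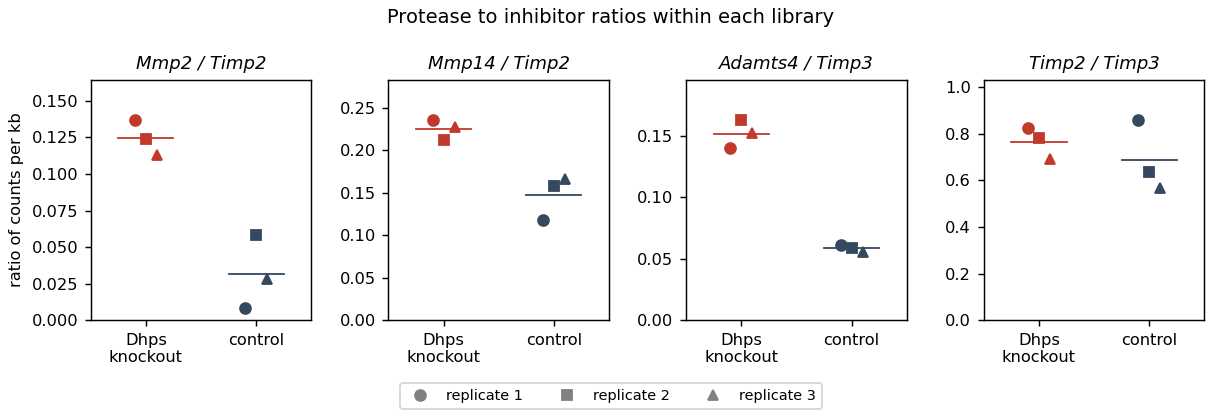
Ratio of counts per kb within each library for Mmp2 to Timp2, Mmp14 to Timp2, Adamts4 to Timp3 and Timp2 to Timp3, with knockout-labelled libraries in red left of the controls and bars for group means. The first 3 ratios separate the groups, while control 1 at 0.859 is the highest value of Timp2 to Timp3.

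Extreme values were spread unevenly over the libraries. Of the 15, 9 had their lowest control value in control 1 and 9 their highest control value in control 2. Among the knockout-labelled libraries, replicate 1 held the highest value of 8 genes and replicate 3 the lowest of 9.

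**Figure D4:**
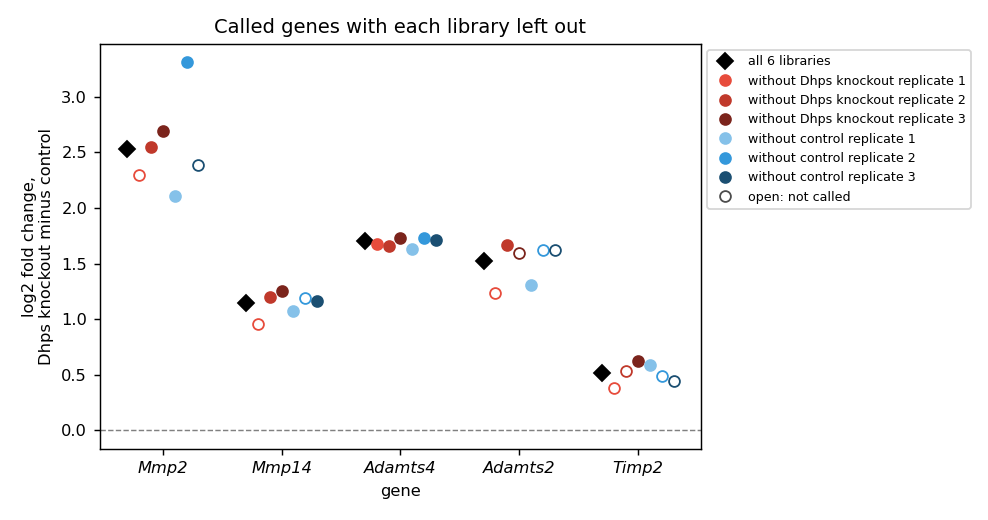
Log2 fold change (knockout-labelled minus control) of the 5 called genes with all 6 libraries (diamonds) and with each library left out (circles, open where the call is lost). Adamts4 stays between 1.63 and 1.73 and called throughout, and Timp2 loses its call in 4 of the 6 cases.

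Genes of related proteases, inhibitors and activators were taken from further lists, chosen with earlier results of these data known. Over all tested genes 4.14% were called higher and 2.63% lower. Of 11 ADAM genes, membrane proteases that shed cell-surface proteins, 9 were tested, and Adam15 (0.67 ± 0.15) and Adam8 (2.61 ± 0.67, a gene of myeloid cells at 1.06, 0.470 and 1.12 CPM in the knockout-labelled libraries, against 0.0463, 0.0833 and 0.277 CPM in the controls) rose. Of 6 genes for ADAMTS-like proteins and papilin, which lack a protease domain, 4 were tested and Adamtsl1 rose (2.10 ± 0.52). Of 6 astacin-family genes, 1 was tested and it was not called. Of 10 tested genes for other inhibitors and matricellular regulators, Serpine2, an inhibitor of plasminogen activators and thrombin (0.75 ± 0.12), and Serping1, the C1 inhibitor (0.53 ± 0.11), rose, the proteoglycan Spock2 fell (−0.39 ± 0.10) and 7 were not called. Of 9 tested genes for activators of latent enzymes, the urokinase receptor Plaur rose (1.92 ± 0.45), the proprotein convertase Pcsk6 fell (−0.69 ± 0.12) and 7 were not called. The median log2 fold changes of these lists were 0.27, 1.25, 0.08, 0.41 and 0.48 in the order given, against 0.01 over all tested genes.

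Some genes for substrates of these enzymes rose and others did not. Of the Adamts4 substrates named above, versican, Vcan, was not called (−0.19 ± 0.56). Aggrecan, Acan, had 1 count in knockout-labelled replicate 1 and 0 in every other library. The counts below stand beside 4.14% called higher and 2.63% called lower over all tested genes. Of 11 tested proteoglycans and other ADAMTS substrates, 5 rose, 0 fell and 6 were not called. Among them were the proteoglycans Dcn (42.8 ± 7.51 CPM in the knockout-labelled libraries and 10.9 ± 3.34 CPM in the controls, SD, n = 3 each; log2 fold change 1.97, edgeR adjusted p = 0.00543) and Bgn (1.49 ± 0.25), von Willebrand factor Vwf (1.70 ± 0.26) and Fbln1, fibulin 1 (1.74 ± 0.37), with a list median of 0.54. Of 11 tested genes for collagens, elastin, fibrillin and fibronectin, Eln, elastin (1.29 ± 0.24), and Col18a1, the precursor of endostatin (1.15 ± 0.27), rose. The other 9 were not called, and the list median was 0.88. Genes known to induce metalloproteinase transcription moved both ways. Of 19 tested, Il6 (1.77 ± 0.28) and Ets1 (0.79 ± 0.18) rose, the AP-1 subunits Fosb (−1.06 ± 0.26) and Fos (−1.63 ± 0.42) fell and 15 were not called (median 0.07).

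The sums of several marker lists of other cell types also differed between the groups, and their relation to the 15 genes was not tested. Bulk counts cannot tell fewer or more cells of a type from less or more RNA per cell. For the counts of markers that rose, the share called higher over all tested genes was 4.14%. The 15 stellate cell and fibroblast markers summed to 412 to 527 CPM in the knockout-labelled libraries, against 124 to 360 CPM in the controls, and 5 of them rose, among them Dcn and Mgp (1.20 ± 0.16). The 13 macrophage markers summed to 312 to 412 CPM in the knockout-labelled libraries, against 183 to 201 CPM in the controls, and 6 rose, among them Cd68 (1.98 ± 0.22) and C1qc (1.10 ± 0.15). The 12 endothelial markers summed to 565 to 665 CPM in the knockout-labelled libraries, against 398 to 516 CPM in the controls, and 5 rose, among them Pecam1 (0.74 ± 0.11) and Vwf. The other 7 were not called, and Kdr (−0.02 ± 0.13) and Flt1 (−0.01 ± 0.14) showed almost no difference. The 14 acinar markers summed to 28400 to 32800 CPM in the knockout-labelled libraries, against 1060 to 12000 CPM in the controls, with control 3 the lowest, and none was called by edgeR. Yet all 13 acinar markers tested were higher without overlap of the groups, against 16.9% of all tested genes. Their median log2 fold change was 1.97, against 0.99, 1.10 and 0.47 for the stellate, macrophage and endothelial lists. The 10 duct markers summed to 1100 to 1460 CPM in the knockout-labelled libraries, against 808 to 1040 CPM in the controls, and Spp1 rose (1.53 ± 0.35).

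The groups overlapped or were near 0 for the remaining lists. The 10 lymphocyte markers summed to 9.06 to 80.8 CPM in the knockout-labelled libraries, against 11 to 19.5 CPM in the controls, with Cd4 called higher (2.96 ± 0.72). The 6 mesothelial markers summed to 50.3 to 164 CPM in the knockout-labelled libraries, against 73.0 to 164 CPM in the controls, and none was called by edgeR. Neutrophil markers, of which Mpo, Elane, Cxcr2 and Camp were at 0 in all libraries, summed to 1.17 to 2.21 CPM in the knockout-labelled libraries, against 0.583 to 0.740 CPM in the controls. Mmp8 and Mmp9, enzymes stored by neutrophils, were both under the minimum. The β cell markers, which check the islet label, summed to 393000 to 448000 CPM in the knockout-labelled libraries, against 367000 to 496000 CPM in the controls. Against 2.63% of all tested genes, 4 of these 10 markers fell, among them Ucn3 (−0.86 ± 0.15) and Nkx6-1 (−0.65 ± 0.12).

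**Figure D5:**
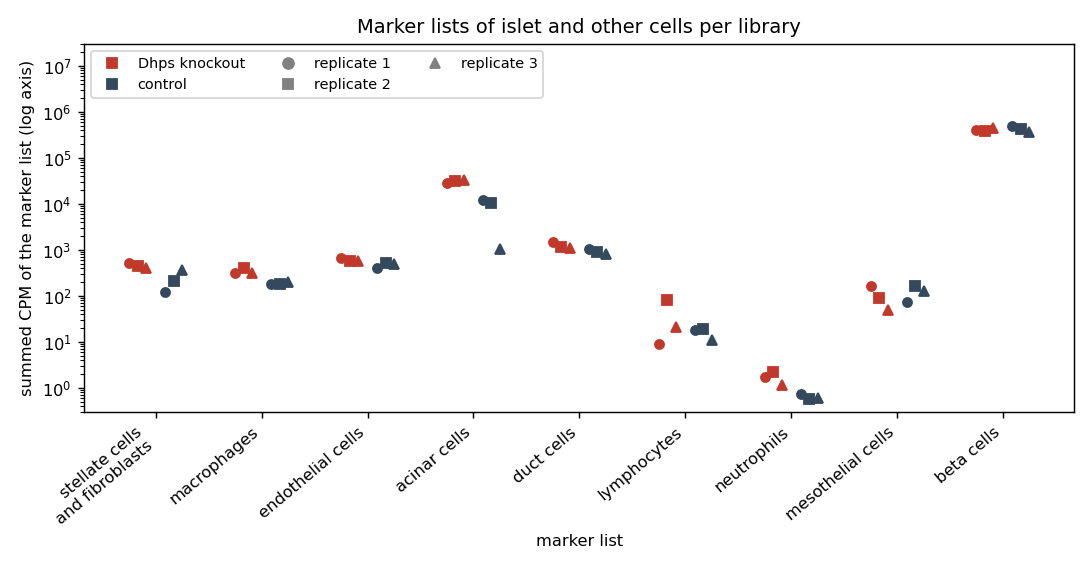
Summed CPM of each marker list on a log axis, with knockout-labelled libraries in red left of the controls in dark blue. Stellate, macrophage, endothelial, acinar, duct and neutrophil sums are higher in all 3 knockout-labelled libraries, and control 3 stands apart with 1060 CPM of acinar markers.

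Set against those marker sums, the called genes differed from one another. Mmp2 had 17.5, 15.0 and 13.2 counts per 1000 stellate marker counts in the knockout-labelled libraries, against 2.98, 10.6 and 2.85 in the controls, which did not overlap. Col1a1, Col1a2 and Col3a1 made up 55.7% to 60.5% of the stellate marker counts in the knockout-labelled libraries, against 38.7% to 71.6% in the controls. Set against each of the 15 stellate markers alone, Mmp2 overlapped between the groups for 6, among them Dcn, Lum and Pdgfra, which rose themselves. It did not overlap for the other 9, among them Mgp and Gas6, which also rose. Mmp2 counts per Pdgfra count were 2.92, 2.21 and 3.24 in the knockout-labelled libraries, against 0.8, 6.88 and 2.36 in the controls. The control values rest on only 10, 8 and 11 Pdgfra counts and are therefore imprecise. Adamts4 had 26.3, 30.5 and 31.1 counts per 1000 stellate marker counts in the knockout-labelled libraries, against 30.6, 20.4 and 12 in the controls, which overlapped. Adamts2, Mmp14 and Timp2 also overlapped on the stellate scale. Unlike Mmp2, these genes and Adamts4 were not set against single stellate markers. Their overlap therefore holds for the sum only, which was lowest in control 1, at 124 CPM, and whose collagen share varied between the controls. Timp2 had 153, 144 and 139 counts per 1000 stellate marker counts in the knockout-labelled libraries, against 423, 218 and 120 in the controls. Per 1000 endothelial marker counts, Adamts4 had 20.8, 24.6 and 22.7 counts in the knockout-labelled libraries, against 9.52, 8.55 and 8.56 in the controls, and Mmp2, Mmp14 and Adamts2 likewise did not overlap, while Timp2 did. Per 1000 macrophage marker counts, Mmp2 and Adamts4 did not overlap, while Mmp14, Adamts2 and Timp2 did. Per 1000 acinar marker counts, all 4 called proteases overlapped, and Adamts4 had 0.488, 0.450 and 0.391 counts in the knockout-labelled libraries, against 0.317, 0.418 and 4.05 in the controls. Timp2 was lower on the acinar scale without overlap, at 2.83, 2.12 and 1.75 counts in the knockout-labelled libraries, against 4.38, 4.45 and 40.7 in the controls. The acinar sum was itself higher in the knockout-labelled libraries, at 28400 to 32800 CPM, against 1060 to 12000 CPM in the controls. A gene that rose less than this sum comes out lower on this scale, and control 3, with the lowest sum, had the highest values. These scales were chosen after the values were seen, and the part of other cells in the differences was not tested.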

How the data were processed

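Whole-number counts per gene for 6 islet libraries were deposited by the authors, not normalized. Per the labels' protocols, cDNA came from poly-dT priming of low-input total RNA with amplification and sonication, which keeps no strand, so overlapping genes cannot be separated. Build mm10, featureCounts, edgeR, Subread 1.5.0 and STAR 2.4.2a appear in the submitters' processing notes. Annotation and multi-mapping settings were not given in the sources used here. Levels per kb used the deposited gene lengths, in another unit (bp).

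In R 4.3.3, edgeR 4.0.16 was used with TMM factors, its default expression filter, quasi-likelihood fits and group as the only term, with Benjamini-Hochberg adjustment over 13736 genes. Standard errors came from the fold change and the F value. Exon overlaps used GenomicRanges 1.54.1, ignoring strand. The alternatives used DESeq2 1.42.0 and limma 3.58.1, other factors and filters, a replicate block and each library left out. The fit was also run on 1 simulated data set with known changes, where no call had the wrong sign and false calls were more frequent than the nominal rate.

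The members, lists and tests were chosen with earlier results of these data known. Named genes were Dhps, the members by the CPM rule, up to 4 called genes of each pathway list and up to 2 of each marker list. Further listed genes were named where a statement about a list depended on them. Lists share 9 genes, among them Dcn, Vwf and Prss2. No pair of libraries within a group agreed within counting noise (chi-square per degree of freedom 10.8 or more). Floors for a count of 0 use 3 counts and cover counting error only, since the reads carry no molecular identifiers. Promoter sequences are from RefSeq (GRCm38.p6); the spans of all 46 genes overlap their GENCODE M21 entries on the same build.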

Additional observations from a re-analysis of the deposited data

How the results depend on the processing

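Directions of the 15 genes were kept under all alternatives except when libraries were left out: Adamts18 then ran from −0.09 to 0.51 and Mmp24 from −0.04 to 0.18, and neither was called. With each library left out, between 1 and 5 of the 15 genes were called higher and between 0 and 1 lower, and between 64 and 968 genes were called over all tested. All genes called numbered 929 in edgeR with the default filter, 1413 with no filter on low counts and 1702 in DESeq2; the cause was not tested. With a minimum of 0.5 CPM in 3 or more libraries, 24 of the 46 genes would be reported, by construction of a lower minimum. Whether the replicate numbers pair the libraries is not known. Deviations of same-numbered libraries correlated at −0.04, −0.01 and 0.05, which cannot decide it with so few libraries per group. With a replicate block 826 genes were called and again 5 of the 15 were higher. At these library totals a gene under 1 CPM rests on few counts, which limits what can be said of the 31 genes under the minimum.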
